A study of Mus musculus with 12 samples.

Results

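Genes of meiosis and the oocyte, 10 in number, were followed across 2 mouse embryonic stem (ES) cell lines kept without or with serum. They were Sycp1, Sycp2, Sycp3, Smc1b, Rec8, Stag3, Hormad1, Figla, Nobox and Zp3, 10 of the 27716 genes on the array. They were taken as a list by gene name, with every probe of each gene. Of these, 8 carried the listed name on the array and 2 were found by accession under older names, Sycp2 as 4930518F03Rik and Rec8 as Rec8L1. The array held 15 probes for the 10 genes. Of their 180 spots on 12 arrays, 131 were well above background, the scanner software's mark for a spot clearly brighter than its surroundings. Sycp3, Smc1b, Rec8, Stag3, Hormad1 and Zp3 were well above background on all 12 arrays. All 10 genes passed the filter on dim probes, which asked for 2 or more arrays with that mark. Figla passed only through the 2 FBS day 0 arrays, and Sycp2 through those and 1 serum-free array.

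The lines carry a Dazl-GFP or a Stella-GFP reporter, and the labels do not state what sequence drives either. Serum-free cells (labelled 2i condition) grew in B27N2 medium and FBS cells in DMEM with 15% fetal bovine serum, both on irradiated mouse fibroblast feeders with the cytokine LIF. The 2i experiments used 1 µM PD0325901, an inhibitor of the kinase MEK, and 5 µM Kenpaullone, an inhibitor of GSK3β. It is not stated in the labels if FBS cells received the inhibitors, or what the serum-free cells had received by day 0. Total RNA was taken at days 0, 3 and 10, giving 6 groups of 2 arrays, 1 array per line.

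Each of 3 slides carried 4 of the arrays. On slide 1 were the 3 FBS Dazl-GFP arrays and the FBS Stella-GFP day 0 array. Slide 2 held the serum-free Dazl-GFP day 0 and 3 arrays and the FBS Stella-GFP day 3 and 10 arrays, and slide 3 held the serum-free Stella-GFP arrays and the serum-free Dazl-GFP day 10 array. No slide held both media at day 0 or day 10, so the media cannot be compared within a slide at those days, and an adjustment for slide rests on the other days. Between 64.0% and 74.4% of spots were well above background, with the lowest share on the FBS Stella-GFP day 3 array. Of 8 listed ES cell markers 7 were on the array, and all 7 were well above background on every array. All 11 fibroblast markers were too, so this mark alone does not tell ES cells from other cells.

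Meiosis is the division by which germ cells reduce their chromosome number. Homologous chromosomes are paired along a protein axis built from meiotic cohesin and the proteins SYCP2, SYCP3 and HORMAD1, and are then joined by the synaptonemal complex, whose transverse filament is SYCP1. In the ovary the transcription factors FIGLA and NOBOX switch on oocyte genes, among them those of the zona pellucida, the coat of the egg. Many such genes are silenced by DNA methylation or by Polycomb-type repressors in other cells, and mouse ES cells are known to transcribe some of them at low levels.

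The promoters of the genes differ in sequence and are shown because silencing of germline genes in ES cells is known to involve particular promoter words. Sequences are RefSeq's for GRCm38.p6, from 250 bases before to 50 after the start of transcription, and all 10 genes had one. Capitals mark CACGTG, the letters bound by the MYC and MAX family, and TCCCGC or its reverse complement GCGGGA, a word of E2F sites. Sycp1 (chr3:102936051-102936350, minus strand), Sycp3 (chr10:88459337-88459636, plus) and Stag3 (chr5:138280259-138280558, plus) hold both words, as does Zp3 (chr5:135979855-135980154, plus). Figla (chr6:86016941-86017240, plus) holds neither.
Sycp1: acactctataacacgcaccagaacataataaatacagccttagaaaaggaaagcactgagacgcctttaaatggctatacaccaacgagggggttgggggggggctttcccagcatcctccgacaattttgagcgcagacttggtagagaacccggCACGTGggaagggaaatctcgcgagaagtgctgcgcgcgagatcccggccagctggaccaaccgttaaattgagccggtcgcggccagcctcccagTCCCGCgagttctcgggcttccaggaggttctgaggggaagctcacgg
Sycp3: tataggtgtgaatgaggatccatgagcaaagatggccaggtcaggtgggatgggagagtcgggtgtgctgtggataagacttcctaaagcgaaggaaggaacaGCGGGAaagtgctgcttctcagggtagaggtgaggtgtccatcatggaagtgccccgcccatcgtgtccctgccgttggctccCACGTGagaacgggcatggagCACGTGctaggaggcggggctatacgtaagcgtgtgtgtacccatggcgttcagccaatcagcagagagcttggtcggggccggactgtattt
Stag3: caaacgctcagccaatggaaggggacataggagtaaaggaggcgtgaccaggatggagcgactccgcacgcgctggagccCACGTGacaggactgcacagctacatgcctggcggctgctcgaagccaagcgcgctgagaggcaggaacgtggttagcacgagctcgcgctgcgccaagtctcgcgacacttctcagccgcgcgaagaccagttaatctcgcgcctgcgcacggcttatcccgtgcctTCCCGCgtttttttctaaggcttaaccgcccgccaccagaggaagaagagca
Zp3: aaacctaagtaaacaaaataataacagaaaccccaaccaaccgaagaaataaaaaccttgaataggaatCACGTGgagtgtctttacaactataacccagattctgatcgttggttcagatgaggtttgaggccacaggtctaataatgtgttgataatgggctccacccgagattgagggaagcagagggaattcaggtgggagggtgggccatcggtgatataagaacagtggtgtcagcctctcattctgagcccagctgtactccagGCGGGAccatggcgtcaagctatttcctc
Figla: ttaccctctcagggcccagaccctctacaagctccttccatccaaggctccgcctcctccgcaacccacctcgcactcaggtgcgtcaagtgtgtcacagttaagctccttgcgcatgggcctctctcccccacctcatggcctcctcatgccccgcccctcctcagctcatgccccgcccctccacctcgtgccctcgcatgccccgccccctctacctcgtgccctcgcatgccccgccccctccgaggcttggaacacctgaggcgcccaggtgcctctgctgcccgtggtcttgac
CACGTG reads the same on both strands and lay in 5 of the 10 promoters (Sycp1, Sycp3, Stag3, Hormad1 and Zp3), against 7.24% of 27025 promoters of the same length. TCCCGC, on either strand, lay in 7 of 10 (those 5, Smc1b and Rec8), against 20% of all promoters. Both words lay in 5 of 10, against 2.05%. The looser CANNTG, the E-box that FIGLA binds in mouse and which includes CACGTG, lay in 9 of 10, against 72.1% of all. Figla and Zp3 had 4 matches each and Smc1b had none. The promoters held 7 (Zp3) to 30 (Stag3) CpG pairs, where methylation occurs, against a median of 7 over all promoters. A match describes letters only, and no binding or methylation was measured here.

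**Figure D1:**
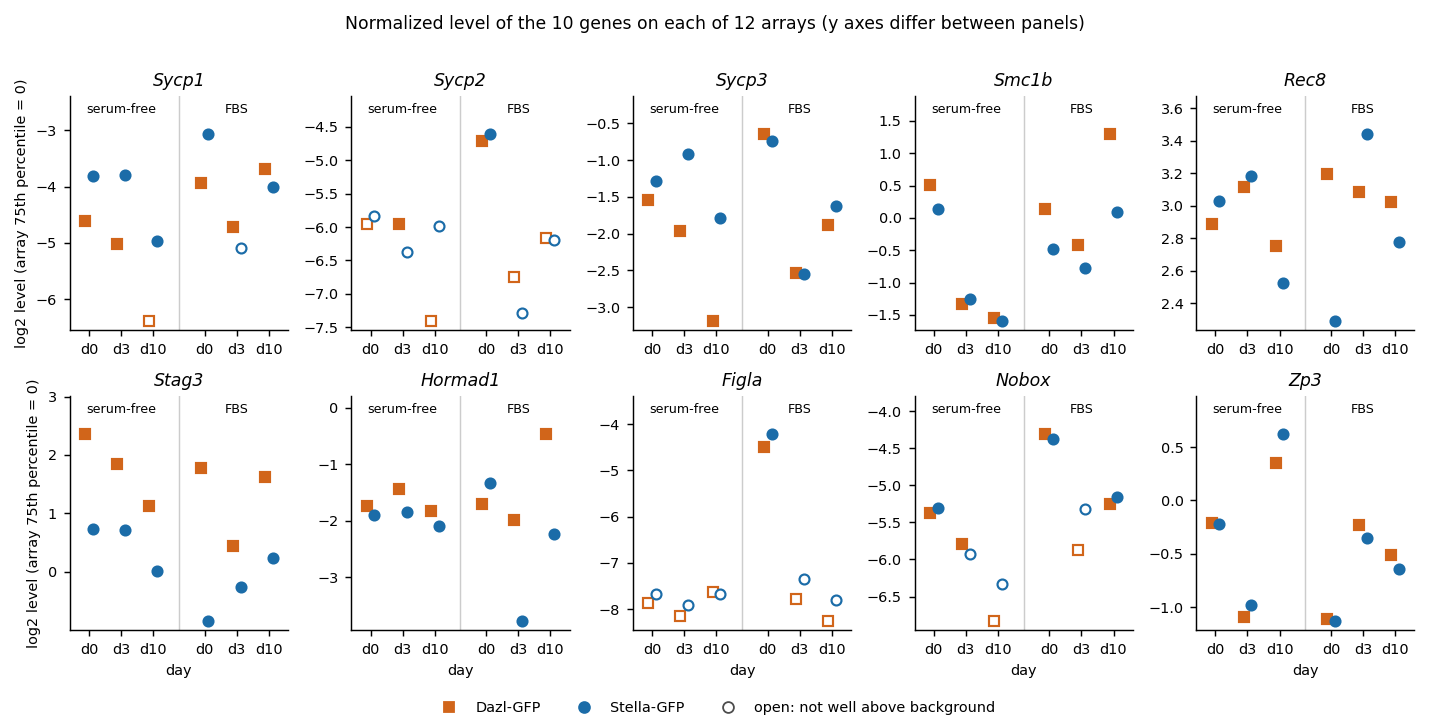
Normalized log2 level of each gene (y axis, the array's 75th percentile is 0, scales differ between panels) by day (x axis), serum-free on the left and FBS on the right of each panel. Each point is 1 array, orange squares Dazl-GFP and blue circles Stella-GFP, with open points not well above background. Figla was well above background on the 2 FBS day 0 arrays only, and Zp3 was higher in serum-free than in FBS cells at days 0 and 10 and lower at day 3.

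Levels below are percentages of the array's 75th percentile, and fold changes come from limma's fit of log2 levels with line as a term. Adjusted p-values run over the 21353 genes tested, with a threshold of 0.05. Levels of different genes are not set against each other, since each probe has its own brightness. At day 0, 2 of the 10 genes differed between media, against 1.9% of all genes tested. Of these, 1 was higher in serum-free than in FBS cells (1.03% of all genes) and 1 lower (0.871%). At day 3, 1 of the 10 differed, against 22.6% of all genes, and it was lower in serum-free cells (0 higher, against 8.98%, and 1 lower, against 13.6%). At day 10, 3 of the 10 differed, against 5.61%, with 1 higher (2.01% of all genes) and 2 lower (3.6%). The median difference over the 10 genes was −0.50 at day 0, 0.19 at day 3 and −0.56 at day 10 on the log2 scale, against −0.02, −0.21 and 0.11 over all genes.

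Over time in serum-free cells, 2 of the 10 genes changed by day 3, against 13.9% of all genes, with 0 rising (5.92% of all genes) and 2 falling (7.95%). By day 10, 2 had changed, against 5.23%, with 0 rising (2.16%) and 2 falling (3.06%). In FBS cells 5 of the 10 changed by day 3, against 12%, of which 1 rose (6.69%) and 4 fell (5.3%). By day 10 in FBS cells 2 had changed, against 12.9%, with 0 rising (7.57%) and 2 falling (5.34%). The members' median change was −0.25 and −0.89 in serum-free cells at days 3 and 10, against −0.04 and 0.12 over all genes. In FBS cells it was −1.30 and −0.09, against 0.09 and −0.03. The lower gene at day 0 between media (Figla), 2 of the 4 falls by day 3 in FBS cells (Figla and Sycp2) and 1 of the 2 falls by day 10 there (Figla) belong to genes that passed the filter only because of the FBS day 0 pair. The filter favours such calls, so for these the counts and medians are a description and no p-value is given below. These comparisons share day 0 arrays or days with those between media. Fewer cells expressing a gene and less RNA per cell cannot be told apart in bulk RNA.

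**Figure D2:**
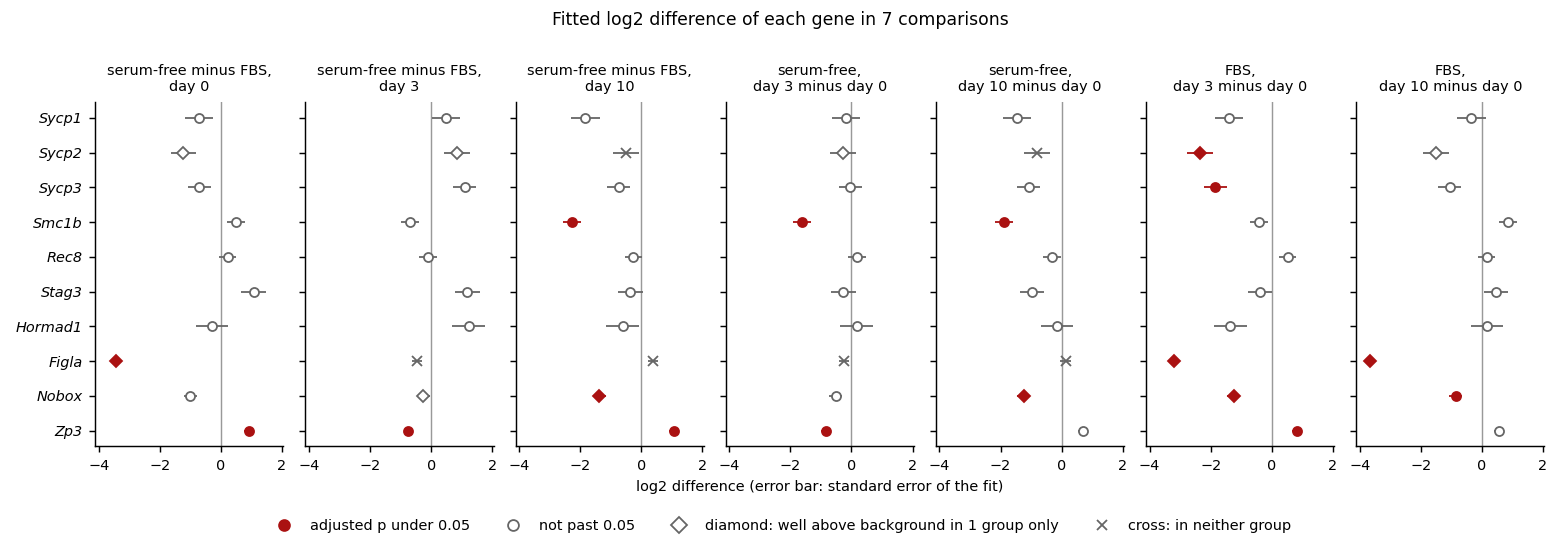
Fitted log2 difference of each gene (x axis, with its standard error) in 7 comparisons, 1 panel each. Red points passed an adjusted p of 0.05. Diamonds are fitted values where 1 group only was well above background and crosses where neither was, and neither kind is a bound on the change. Zp3 passed in 5 panels, and the red diamonds of Figla and Sycp2 involve the FBS day 0 group through which these genes passed the filter.

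Sycp1 encodes the transverse filament that zips homologous chromosomes together. In serum-free cells its level at days 0, 3 and 10 was 4.07%, 3.07% and 1.2% on the Dazl-GFP arrays and 7.08%, 7.23% and 3.20% on the Stella-GFP arrays. FBS cells had 6.56%, 3.81% and 7.76% on the Dazl-GFP arrays and 11.9%, 2.93% and 6.25% on the Stella-GFP arrays. The serum-free Dazl-GFP day 10 and FBS Stella-GFP day 3 arrays were not well above background. At day 10 both serum-free arrays lay below both FBS arrays, by 2.69 in the Dazl-GFP line and 0.97 in the Stella-GFP line on the log2 scale, which did not pass the test (log2 difference −1.83, SE 0.46, adjusted p = 0.0660). In FBS cells both day 3 arrays lay below both day 0 arrays (log2 change −1.40, SE 0.46, adjusted p = 0.0916).

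Sycp3, the structural protein of the axis and lateral element, was at 34.3%, 25.5% and 11% in serum-free Dazl-GFP cells at days 0, 3 and 10 and at 41.0%, 52.7% and 28.9% in serum-free Stella-GFP cells. It was at 63.6%, 17.3% and 27.2% in FBS Dazl-GFP cells and at 59.6%, 17.1% and 32.3% in FBS Stella-GFP cells. The FBS day 0 pair stood above every other array. The lines lay close within FBS cells and in serum-free cells at day 0, but not in serum-free cells at days 3 and 10. By day 3 in FBS cells Sycp3 fell 3.59-fold (log2 change −1.84, SE 0.37, adjusted p = 0.0224). With slide as a block the change was −1.58 (adjusted p = 0.12), and within slide 1, between the FBS Dazl-GFP arrays, it was −1.88. Serum-free cells at day 3 were higher than FBS cells in both lines without passing the test (log2 difference 1.09, SE 0.37, adjusted p = 0.0718). The day 3 change in serum-free minus that in FBS cells was 1.81 (SE 0.53, adjusted p = 0.103).

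Sycp2, SYCP3's partner in the axis, was measured by 3 probes that did not move together, with correlations between −0.67 and 0.04 over the 12 arrays. The brightest was well above background on 3 arrays. It read 1.61%, 1.61% and 0.591% in serum-free Dazl-GFP cells at days 0, 3 and 10 and 1.76%, 1.2% and 1.57% in serum-free Stella-GFP cells. FBS cells gave 3.79%, 0.934% and 1.39% on the Dazl-GFP arrays and 4.08%, 0.641% and 1.36% on the Stella-GFP arrays. The FBS day 0 pair was the highest and, with the serum-free Dazl-GFP day 3 array, the only signal well above background. Day 3 FBS cells were at least 1.82-fold below those of day 0, a description only, since without the FBS day 0 pair the probe would not have passed the filter. Here and below such a bound sets the bright group against the lowest signal well above background on each dim array. With normexp the fitted direction of this difference turned. Another probe was well above background on the FBS Dazl-GFP day 10 array alone, and the third on none.

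Hormad1, an axis protein that monitors pairing, was at 30.1%, 36.9% and 28.1% in serum-free Dazl-GFP cells and at 26.9%, 27.7% and 23.5% in serum-free Stella-GFP cells at days 0, 3 and 10. FBS cells had 30.7%, 25.3% and 72.2% on the Dazl-GFP arrays and 39.6%, 7.33% and 21.3% on the Stella-GFP arrays. The serum-free arrays lay close together, and the spread came from the FBS Dazl-GFP day 10 array and the FBS Stella-GFP day 3 array. A second probe correlated with it (r = 0.79) but differed in FBS Stella-GFP cells, reading 9.88% at day 0 and 12.3% at day 10, a rise where the first probe fell. Hormad1 passed no comparison. On the brighter probe, which represents the gene, the nearest was serum-free against FBS at day 3 (log2 difference 1.23, SE 0.53, adjusted p = 0.129). It became 2.32 with an adjusted p of 0.0335 with slide as a block. The day 0 difference of −0.29 (adjusted p = 0.764) turned to 1.71 (adjusted p = 0.323) under that block.

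Smc1b encodes the SMC subunit particular to meiotic cohesin. It was at 143%, 39.9% and 34.2% in serum-free Dazl-GFP cells and at 109.9%, 41.8% and 33.2% in serum-free Stella-GFP cells at days 0, 3 and 10. FBS Dazl-GFP cells had 109.9%, 74.6% and 245%, and FBS Stella-GFP cells 71.9%, 58.6% and 107%. The 4 serum-free arrays of days 3 and 10 were the lowest of all 12. In serum-free cells Smc1b fell 3.06-fold by day 3 (log2 change −1.62, SE 0.29, adjusted p = 0.0161) and 3.71-fold by day 10 (log2 change −1.89, SE 0.29, adjusted p = 0.0169). At day 10 it was 4.80-fold lower in serum-free than in FBS cells (log2 difference −2.26, SE 0.29, adjusted p = 0.0112).

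The serum-free fall of Smc1b by day 3 was seen within slide 2 in the Dazl-GFP line (−1.84) and within slide 3 in the Stella-GFP line (−1.39), and passed with slide as a block (adjusted p = 0.0256). Under that block the day 10 fall had an adjusted p of 0.0841 and the day 10 difference between media one of 0.330, with nearly the same sizes (−1.98 and −2.21). In FBS cells its day 10 change was 0.86 (SE 0.29, adjusted p = 0.1). The day 10 change in serum-free minus that in FBS cells was −2.76 (SE 0.42) and missed the threshold (adjusted p = 0.0621).

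Rec8, the kleisin that closes the meiotic cohesin ring, had the narrowest range of the 10 genes over the arrays. It was at 740.4%, 865% and 674% in serum-free Dazl-GFP cells and at 817%, 909% and 576% in serum-free Stella-GFP cells at days 0, 3 and 10. In FBS cells it was at 916%, 847% and 811% on the Dazl-GFP arrays and at 489.7%, 1084% and 685% on the Stella-GFP arrays. It passed no comparison, and its 2 probes moved together (r = 0.91). Between media its log2 difference was 0.22 at day 0 (adjusted p = 0.674) and −0.26 at day 10 (adjusted p = 0.607).

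Stag3, the meiotic partner of cohesin, was at 510.1%, 358% and 218% in serum-free Dazl-GFP cells and at 166%, 164% and 101% in serum-free Stella-GFP cells at days 0, 3 and 10. With FBS it was at 342%, 136% and 309% on the Dazl-GFP arrays and at 55.9%, 83.0% and 118% on the Stella-GFP arrays. On every day and in both media the Dazl-GFP array was the higher. No comparison of media or days passed, and the largest difference between media was that at day 3 (log2 difference 1.19, SE 0.40, adjusted p = 0.0696).

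Figla, the basic helix-loop-helix factor of early oocytes, was well above background only in FBS cells at day 0, at 4.46% on the Dazl-GFP array and 5.35% on the Stella-GFP array. The 6 serum-free arrays read 0.355% to 0.505%, and the FBS arrays of days 3 and 10 read 0.328% to 0.61%, none of them well above background. No dim array came near the FBS day 0 pair. At day 0 Figla was at least 2.82-fold lower in serum-free than in FBS cells. In FBS cells it was at least 2.26-fold lower at day 3 than at day 0 and at least 3.18-fold lower at day 10. These bounds carry no test, because Figla was among the genes tested only through the FBS day 0 pair. With normexp the fitted direction turned for the FBS day 3 change.

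All FBS day 0 arrays lay on slide 1, together with the FBS Dazl-GFP arrays of days 3 and 10, on which Figla was not well above background. So the Dazl-GFP line showed the loss of signal within a slide, while the media were not on a common slide at day 0. In the test of whether the change from day 0 differed between media, 2 of the 10 genes passed at day 3, against 1.63% of all genes, with 1 higher (0.459%) and 1 lower (1.17%). At day 10, 1 passed, against 0.0656%, with 1 higher (0.0187%) and 0 lower (0.0468%). The higher gene was Figla at both days, where 3 of the 4 groups entering had no signal well above background, so only the lower gene at day 3, Zp3, is described further.

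Nobox, a homeobox factor of the oocyte, was at 2.40%, 1.81% and 0.88% in serum-free Dazl-GFP cells and at 2.52%, 1.65% and 1.24% in serum-free Stella-GFP cells at days 0, 3 and 10. In FBS cells it was at 5.03%, 1.71% and 2.62% on the Dazl-GFP arrays and at 4.84%, 2.51% and 2.8% on the Stella-GFP arrays. Neither day 10 serum-free array, neither day 3 FBS array and not the serum-free Stella-GFP day 3 array was well above background. The FBS day 0 pair was again the highest, and the serum-free day 10 pair the lowest. By day 3 in FBS cells Nobox was at least 2.28-fold lower (fitted log2 change −1.25, SE 0.21, adjusted p = 0.0137), and by day 10 it had fallen 1.82-fold (log2 change −0.87, SE 0.21, adjusted p = 0.0385). With normexp background correction the fitted day 3 change was 0.13, the opposite direction.

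In serum-free cells Nobox was at least 1.25-fold lower at day 10 than at day 0 (fitted log2 change −1.24, SE 0.21, adjusted p = 0.0220). At day 10 it was at least 1.38-fold lower in serum-free than in FBS cells (fitted log2 difference −1.37, SE 0.21, adjusted p = 0.0170). Normexp turned both of these as well, to 0.12 for the serum-free change and 0.21 for the difference between media. The day 0 difference between media missed the threshold (log2 difference −1.0, SE 0.21, adjusted p = 0.0621). With slide as a block none of these 4 calls of Nobox passed, with adjusted p-values of 0.0555 at day 3 and 0.1 at day 10 in FBS cells, 0.124 in serum-free cells and 0.404 between media at day 10. Within slide 1 Nobox was lower at day 10 than at day 0 in FBS Dazl-GFP cells (−0.94).

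Zp3 encodes the zona pellucida protein that serves as sperm receptor in mouse and is a target of FIGLA there. It was at 86.5%, 47.0% and 128% in serum-free Dazl-GFP cells and at 86.1%, 50.7% and 153% in serum-free Stella-GFP cells at days 0, 3 and 10. Under FBS its level was at 46.3%, 85.1% and 70.2% on the Dazl-GFP arrays and at 45.8%, 78.4% and 64.2% on the Stella-GFP arrays. The lines ran side by side, from high to low in the order serum-free day 10, serum-free day 0, FBS day 3, FBS day 10, serum-free day 3, FBS day 0. Serum-free day 0 and FBS day 3 lay close, as did serum-free day 3 and FBS day 0. How many other genes keep 1 order in both lines was not counted. A second probe gave the same order (r = 0.996), so its 2 probes and 2 lines shared 1 pattern.

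Zp3 was 1.87-fold higher in serum-free than in FBS cells at day 0 (log2 difference 0.91, SE 0.16, adjusted p = 0.0455), 1.67-fold lower at day 3 (log2 difference −0.74, SE 0.16, adjusted p = 0.0184) and 2.09-fold higher at day 10 (log2 difference 1.06, SE 0.16, adjusted p = 0.0157). By day 3 it fell 1.77-fold in serum-free cells (log2 change −0.82, SE 0.16, adjusted p = 0.0194) and rose 1.77-fold in FBS cells (log2 change 0.83, SE 0.16, adjusted p = 0.0195). The difference of these changes was −1.65 (SE 0.23, adjusted p = 0.0311). At day 10 its change was 0.70 in serum-free cells (adjusted p = 0.0511) and 0.54 in FBS cells (adjusted p = 0.0670). On the other probe the FBS change was 0.57 (adjusted p = 0.0430). That value comes from a separate fit adjusted over all probes past the filter, so the 2 adjusted p-values are not alike. Zp3 was lowest in FBS cells at day 0, the only group with Figla well above background, and nearly as low in serum-free cells at day 3. Figla passed the filter only through the FBS day 0 pair, and a link between Figla and Zp3 was not tested.

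The slides bear on Zp3 as follows. Its serum-free fall by day 3 was −0.88 within slide 2 and −0.76 within slide 3 and passed with slide as a block (adjusted p = 0.0316). Its FBS rise was 0.88 within slide 1 (adjusted p = 0.0561 with the block). Across lines at day 3, on slide 2, the serum-free Dazl-GFP array was lower than the FBS Stella-GFP array by 0.74 (a difference of −0.74). The adjusted p-values between media under the block were 0.324, 0.169 and 0.330 at days 0, 3 and 10, with differences of 1.19, −0.58 and 1.26, and that of the difference of day 3 changes was 0.0798.

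With 2 arrays a group, single arrays decided many calls. The day 0 call of Zp3 was lost without any 1 of them (adjusted p between 0.0581 and 0.244). Of the 12 omissions, 8 kept each of the other 4 calls of Zp3 between groups, both serum-free calls of Smc1b and the serum-free day 10 call of Nobox. Each of these was lost without any of the 4 arrays compared, with adjusted p-values of up to 0.122 and 0.0921 for Zp3 between media at days 3 and 10, 0.133 and 0.112 for its serum-free and FBS changes, 0.107 and 0.137 for Smc1b at days 3 and 10, and 0.184 for Nobox. The day 10 difference of Smc1b held in 10, lost without the serum-free Dazl-GFP (adjusted p = 0.0922) or the FBS Dazl-GFP array (adjusted p = 0.0594).

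The FBS day 3 calls of Sycp3 and Nobox each held in 9 omissions and were lost without either FBS day 3 array or the FBS Dazl-GFP day 0 array (adjusted p up to 0.147 and 0.0840). The day 10 difference of Nobox held in 9 and was lost without the serum-free Dazl-GFP or either FBS day 10 array (up to 0.124). Its FBS day 10 call held in 4, when an FBS day 3 or a serum-free day 10 array was left out, and reached 0.170 otherwise. Zp3's difference of day 3 changes held in 4, when an FBS day 0 or a serum-free day 10 array was left out (up to 0.131 otherwise). No omission changed the sign of a call named here.

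Between the lines, Stag3 alone of the 10 genes differed, 2.69-fold higher in Dazl-GFP than in Stella-GFP cells (log2 difference 1.43, SE 0.23, adjusted p = 0.0234). Of all genes 2.68% differed between the lines, 1.1% higher and 1.58% lower in Dazl-GFP cells. It was higher in Dazl-GFP cells in 6 of 6 groups, by 1.62, 1.13 and 1.10 in serum-free cells and 2.62, 0.71 and 1.39 in FBS cells at days 0, 3 and 10 on the log2 scale. Within slide 1 at FBS day 0 the difference was 2.62, and within slide 3 at serum-free day 10 it was 1.10. The call held when an FBS day 0 or day 3 array was left out, 4 of the 12 omissions (adjusted p between 0.0200 and 0.0854 over all 12), and it was lost with slide as a block (difference 1.86, adjusted p = 0.213). Hormad1 differed by 0.67 (SE 0.31, adjusted p = 0.329) and Sycp1 by −0.60 (SE 0.27, adjusted p = 0.310).

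In serum-free cells Sycp1 and Sycp3 were lower in Dazl-GFP than in Stella-GFP cells at all 3 days, and on slide 3 at day 10 by 1.41 and 1.39 (differences of −1.41 and −1.39). Their line difference in serum-free minus that in FBS cells was −1.10 for Sycp1 (SE 0.38, adjusted p = 0.462) and −0.86 for Sycp3 (adjusted p = 0.462). None of the 10 genes passed this test of line by medium in limma, nor did any of the 21353 genes (0%), of which 2256 had an unadjusted p under 0.05.

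**Figure D3:**
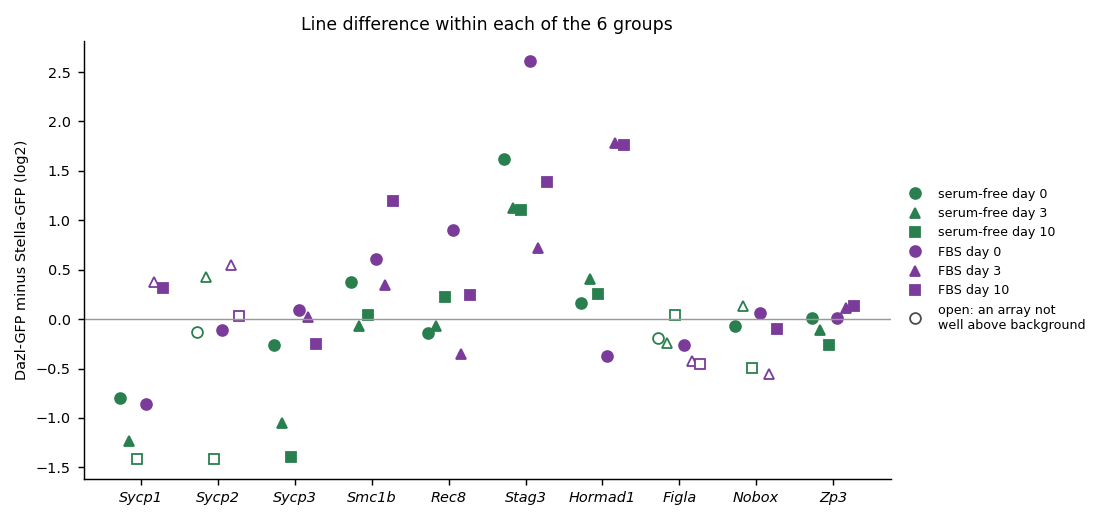
Dazl-GFP minus Stella-GFP log2 level of each gene (y axis) within each of the 6 groups (green serum-free, purple FBS, symbols for days), 1 array per line and group. Open symbols have an array not well above background. All 6 Stag3 points lie above 0, from 0.71 to 2.62, and all 6 Zp3 points lie near 0.

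Across the 12 arrays Sycp1, Sycp2, Sycp3 and Nobox had like patterns, with Pearson r of 0.87 between Sycp2 and Sycp3, 0.85 between Sycp1 and Sycp3 and 0.77 between Sycp1 and Nobox. Figla correlated with Sycp2 (r = 0.73) and Nobox (r = 0.70). Sycp2, Sycp3, Figla and Nobox shared the high FBS day 0 pair. Figla passed the filter only through that pair, and Sycp2 through it and a serum-free array. Their correlations and their high FBS day 0 values thus partly restate the group that admitted them. Zp3 ran opposite to Nobox (r = −0.70), Sycp1 (r = −0.63) and Sycp3 (r = −0.62). Rec8 and Stag3 followed neither pattern. These values describe 12 arrays that fall in 6 groups on 3 slides and share their scaling, and dim Sycp2, Figla and Nobox values carry noise.

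**Figure D4:**
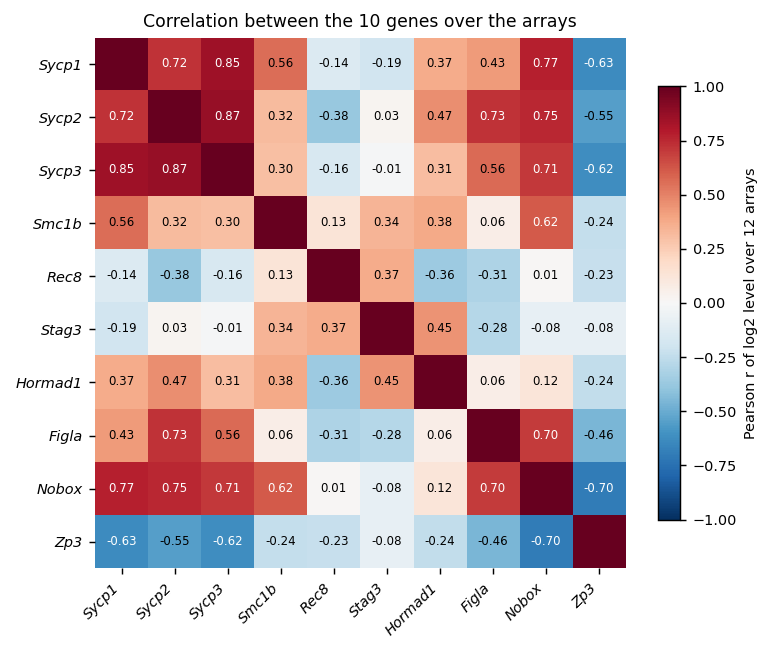
Pearson correlation of normalized log2 level over the 12 arrays for every pair of the 10 genes, red positive and blue negative. Sycp1, Sycp2, Sycp3 and Nobox form a block of positive values from 0.71 to 0.87, and Zp3 is negative with all 9 others.

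For the 8 genes well above background on at least 6 arrays, the genes most alike over the 12 arrays were found among 15811 genes. For Sycp1 they included Dagla (r = 0.911) and Sycp1-ps1 (0.899). Sycp1-ps1 is a pseudogene copy of Sycp1, so shared hybridization cannot be told apart from shared level. They were Cox8c (0.897), Dlgap5 (0.892) and Sycp1-ps1 (0.882) for Sycp3, and Cgas (0.907), Glce (0.906) and Tex12 (0.882) for Smc1b. Tex12, part of the synaptonemal complex's central element, was the only other meiosis gene of the lists below among them. For Rec8 they included Pold4 (0.881) and Spg21 (0.866), and for Stag3 they were Pomt1 (0.955), Klf5 (0.953) and Nlrp4f (0.934). For Hormad1 they were Dpy19l1 (0.933), Oxr1 (0.897) and Sult2a8 (0.891). For Nobox they were H2-M3 (0.940), Dusp26 (0.929) and Slc30a4 (0.928), and for Zp3 Ankmy2 (0.932), Atp5k (0.911) and Car1 (0.887).

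Other genes of the same pathways were read from lists chosen, like the members, with earlier results of these data known. Of 11 further axis, synapsis and cohesin genes tested (15 listed), 0 passed between media at day 0. At day 3, 1 was higher and 1 lower in serum-free cells (8.98% and 13.6% of all genes), and at day 10, 1 was lower (3.6%). In serum-free cells 3 fell by day 3 (7.95% of all genes), namely Tex12, Syce1 and Syce2 of the central element, and 1 by day 10 (3.06%), with none rising. In FBS cells 1 fell by day 3 (5.3% of all genes) and 1 rose by day 10 (7.57%). Tex12 fell by 1.68 on the log2 scale by day 3 in serum-free cells (change −1.68, SE 0.28, adjusted p = 0.0116) and was lower in serum-free than in FBS cells at day 10 (−1.58, SE 0.28, adjusted p = 0.0249), the comparisons in which Smc1b also passed. At each of these days Tex12 was well above background on only 1 serum-free array, so both sizes rest in part on a dim array. Tex12 also fell in FBS cells by day 3 (−1.08, SE 0.28, adjusted p = 0.0465), where Smc1b did not pass. There too only 1 day 3 array was well above background. Hormad2, a relative of Hormad1, was higher in serum-free than in FBS cells at day 3 (1.67, SE 0.23, adjusted p = 0.00469) and higher in Dazl-GFP than in Stella-GFP cells (2.00, SE 0.13, adjusted p = 0.000971).

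Of 16 recombination genes tested (22 listed), 1 was higher and 2 lower in serum-free than in FBS cells at day 3 (8.98% and 13.6% of all genes), 1 was lower at day 10 (3.6%) and 0 passed at day 0. In serum-free cells 0 rose, 3 fell by day 3 (7.95% of all genes) and 2 by day 10 (3.06%), and in FBS cells 2 fell by day 3 (5.3%) and 1 rose by day 10 (7.57%). Mei1, needed for meiotic DNA breaks, fell in serum-free cells by day 3 (log2 change −1.58, adjusted p = 0.00747), and Dmc1, the meiotic strand-exchange recombinase, was higher in serum-free than in FBS cells at day 3 (0.77, adjusted p = 0.0374). Spo11, the enzyme that makes the breaks, passed no comparison. Of 9 genes of meiotic entry and division (11 listed), 1 was lower in serum-free than in FBS cells at day 0 (0.871% of all genes), 0 passed at day 3 and 2 were lower at day 10 (3.6%). In serum-free cells 1 fell by day 3 (7.95% of all genes) and 2 by day 10 (3.06%), and in FBS cells 1 rose and 1 fell by day 3 (6.69% and 5.3%) and 0 passed by day 10. Stra8, the retinoic acid target that starts meiosis, was lower in serum-free than in FBS cells at day 10 (log2 difference −5.17, SE 0.53, adjusted p = 0.00594), as was Dmrt1, a regulator of Stra8 (−2.09, adjusted p = 0.0170). Dmrt1 was well above background on only 1 serum-free array at day 10.

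A list of further oocyte genes held transcription and secreted factors and also the receptor gene Kit, with 5 tested (9 listed). Of these, 0 passed between media at day 0. In serum-free cells 1 was lower at day 3 (Gdf9, 13.6% of all genes) and 1 at day 10 (Kit, 3.6%). Over time in serum-free cells 1 rose by each day, Kit both times (5.92% and 2.16% of all genes at days 3 and 10). With FBS 1 rose by day 3 (Kit, 6.69%) and 2 by day 10 (Kit and Sohlh2, 7.57%). Kit, the receptor needed for oocyte growth, rose in both media, by 2.13 and 1.36 in serum-free cells at days 3 and 10 (adjusted p = 0.00298 and 0.0168) and by 1.56 and 2.37 in FBS cells (adjusted p = 0.00776 and 0.00186), and was lower in serum-free than in FBS cells at day 10 (−1.02, adjusted p = 0.0378). Sohlh2, an oocyte transcription factor, rose in FBS cells by day 10 (1.14, adjusted p = 0.0147). Gdf9, the growth factor of the oocyte, was lower in serum-free than in FBS cells at day 3 (−1.17, adjusted p = 0.0136), as Zp3 was. Of 10 zona and maternal effect genes (15 listed), only 1 passed between media, Khdc3 at day 3, lower in serum-free cells (−1.88, adjusted p = 0.0120), where 13.6% of all genes were lower. In serum-free cells 2 rose by day 3 (5.92% of all genes), and 1 rose and 2 fell by day 10 (2.16% and 3.06%). In FBS cells 2 rose and 2 fell by day 3 (6.69% and 5.3%), and 1 rose and 1 fell by day 10 (7.57% and 5.34%).

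Of 21 repressors of germline genes, 3 were higher and 3 lower in serum-free than in FBS cells at day 3, near the shares of all genes (8.98% and 13.6%). At day 10, 3 were higher (2.01% of all genes), and at day 0, 0 passed. In serum-free cells 2 fell by day 3 (7.95% of all genes) and 0 passed by day 10, and in FBS cells 1 rose and 2 fell by day 3 (6.69% and 5.3%) and 1 rose and 3 fell by day 10 (7.57% and 5.34%). Those higher in serum-free cells at day 10 were the DNA methyltransferases Dnmt3b (log2 difference 2.69, adjusted p = 0.0113) and Dnmt3a (1.48, adjusted p = 0.0316) and the Polycomb-type factor L3mbtl2 (0.84, adjusted p = 0.0283). Dnmt3b fell by day 3 in both media, by 2.82 in serum-free cells (−2.82, adjusted p = 0.00521) and 2.97 in FBS cells (−2.97, adjusted p = 0.00545), and by day 10 in FBS cells (−3.24, adjusted p = 0.00290). E2f6 and Pcgf6, subunits of a Polycomb complex that silences germline genes in ES cells, passed no comparison. Of 9 germ cell genes that are methylated in somatic cells (11 listed), 0 passed between media at day 0, 3 were higher and 2 lower in serum-free cells at day 3 (8.98% and 13.6% of all genes), and 1 was lower at day 10 (3.6%). Falls numbered 4 by day 3 (7.95% of all genes) and 4 by day 10 (3.06%) in serum-free cells, and 4 by day 3 (5.3%) and 2 by day 10 (5.34%) in FBS cells. There was 1 rise, Dazl by day 10 in FBS cells (2.52, adjusted p = 0.0384). Ddx4, the germ cell RNA helicase, fell in serum-free cells by day 3 (−1.67, adjusted p = 0.00294). Dazl was higher in the Dazl-GFP line (2.53, SE 0.36, adjusted p = 0.0156), and whether its probe also reads the reporter was not tested.

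The median change by day 3 in serum-free cells was −0.19 for the axis and cohesin list, −0.38 for recombination and 0.20 for entry and division. It was 0.13 for oocyte factors with Kit and 0.16 for zona and maternal effect genes. For repressors it was −0.41 and for methylated germ cell genes −0.55, against −0.04 over all genes tested. By day 3 in FBS cells the same medians were −0.18, 0.01, −0.57, 0.32, −0.28, 0.02 and −0.89, against 0.09 over all genes. Among these lists the methylated germ cell genes had the lowest median in both media. The 10 genes of this report had a lower one in FBS cells (−1.30).

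Markers of other cells moved with medium and day beside these results, and their part in them was not tested. The 11 fibroblast markers, which feeders express, were well above background on every array. Their summed level, in multiples of the 75th percentile, was 11.2 to 17.1 in serum-free and 58.9 to 109 in FBS cells at day 3. There 0 of the markers were higher (8.98% of all genes) and 9 lower (13.6%) in serum-free cells. At day 0 the summed level was 32.4 to 38.8 in serum-free and 41.9 to 45.4 in FBS cells. At day 10 it was 18.6 to 37.3 in serum-free and 39.4 to 58.1 in FBS cells. Macrophage markers (3 to 6 of 6 well above background) summed to 0.687 to 1.05 in serum-free and 4.31 to 7.73 in FBS cells at day 3. Of these markers, 4 of 6 were lower in serum-free cells there, against 13.6% of all genes. Ptprc, a general marker of white blood cells, was among the 4 but was not well above background on either serum-free or FBS arrays at day 3. At day 0 the sums were 1.64 to 2.58 in serum-free and 2.14 to 7.03 in FBS cells. At day 10 they were 0.841 to 1.36 and 1.71 to 1.93.

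Primitive endoderm markers, 7 or 8 of 8 well above background, summed to 5.61 to 9.35, 2.57 to 7.06 and 0.618 to 0.651 in serum-free cells at days 0, 3 and 10, and to 0.759 to 2.91 across FBS arrays. At day 3, 5 were higher in serum-free than in FBS cells (8.98% of all genes). In serum-free cells 5 were lower at day 10 than at day 0 (3.06%). Markers of granulosa and Sertoli cells, the support cells of germ cells, summed to 0.220 to 0.401 on all 12 arrays, with 4 or 5 of 6 well above background and Cyp19a1 on none. None of the 5 tested passed between media at days 0 and 10 (1.9% and 5.61% of all genes), and 1 was higher in serum-free cells at day 3 (8.98%).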

How the data were processed

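Expression was measured with 12 one-colour Agilent arrays, 1 per line, medium and day. Spot intensities (gProcessedSignal, background-subtracted) were deposited as Feature Extraction 9.1.3.1 output, per the file headers. A table of the authors' processed values, deposited for the series, holds the ratio of each signal to its array's median, as found by setting it against the scanner values; it was used as an alternative. Fluorescence has no counting depth, so the number of arrays limits precision.

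Log2 intensities were set relative to each array's 75th percentile, spots of a probe were averaged and each gene was represented by its brightest probe on average (41174 probes, 27716 genes). Probe names came from RefSeq accessions (22951), the authors' table (7506) or the file (10717). Genes marked well above background by the scanner software on 2 or more arrays (21353) were fitted with limma 3.58.1 in R 4.3.3, with group and line as terms, eBayes (residual df 5) and Benjamini-Hochberg adjustment. The line pairs the arrays, since the same 2 lines enter every group; line deviations correlated from −0.05 to 0.571 (median 0.156, above 0.1 in 13 of 15 pairs of groups). Nothing in the labels says that a line's arrays are separate cultures, so p-values measure the spread between arrays. With 1 array per line, medium and day, that spread mixes array noise with how far the 2 lines differ in their changes. Of these steps only the limma fit was tested on simulated data, which held no line or slide effects.

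The 10 genes and the other lists were chosen with earlier results of these data known. Named are the 10 genes, of each other list up to 4 genes with the lowest adjusted p in a comparison and the same sign in both lines plus up to 2 that carry the list's name, and the 3 genes most alike to each member, of which some are not reported here. Alternatives were the background correction (normexp, offset 50), quantile normalization, no filter or a stricter one, the authors' table, a variance trend, only the arrays compared, slide as a block, no line term, and leaving out each array. A floor for dim signals was added after the data were seen.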

Additional observations from a re-analysis of the deposited data

Results flagged for a closer look

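The change from day 0 differed between serum-free and FBS cells, by a test of the difference itself, for Zp3 at day 3. Zp3's change was lower in serum-free cells by 1.65 (difference of changes −1.65, SE 0.23, adjusted p = 0.0311, or 0.0798 with slide as a block), with a fall in both serum-free lines and a rise in both FBS lines. Figla also met this rule, with fitted differences of changes of 2.97 at day 3 and 3.80 at day 10 on the log2 scale. These fitted values do not measure a size, since 3 of the 4 groups in each had no Figla signal well above background and the gene passed the filter only through the fourth, FBS day 0, so no p-value is given for them.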

How the results depend on the processing

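Counts of the 10 genes called moved with the processing as follows, and the causes were not tested unless stated. Between media at day 0 (2 in the reported fit) the count was 4 with a floor for dim signals, chosen after the data were seen, 1 without the filter, with normexp, with only genes well above background on all 12 arrays or with only the arrays compared, and 0 with slide as a block. At day 3 (1) it was 2 with the authors' table, 3 with a variance trend or the strict filter, 5 with normexp and 0 with only the arrays compared. At day 10 (3) it was 0 with slide as a block or with only the arrays compared. In serum-free cells at day 10 (2) it was 0 with the same 2 settings. In FBS cells at day 3 (5) it was 2 with normexp or the strict filter, 1 with slide as a block and 0 with only the arrays compared. In FBS cells at day 10 (2) it was 1 with the authors' table, no filter, normexp, the strict filter, quantile normalization, slide as a block or a variance trend, and 0 with only the arrays compared. For the difference of changes at day 3 (2) it was 1 with the floor or the strict filter and 0 with slide as a block or only the arrays compared. At day 10 (1) it was 2 with the authors' table, the floor or a variance trend and 0 with slide as a block or only the arrays compared. Between lines (1) it was 0 with slide as a block. The strict filter removes Figla, Sycp2, Nobox and Sycp1, and fits of only the arrays compared have fewer arrays.

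Without the line term, which drops the pairing of arrays by line (no replicate block), the count was 1 between media at day 0, in FBS cells at day 10 and for the difference of day 3 changes. Over all genes that fit called 135 between media at day 0, 612 at day 10, 600 in serum-free cells at day 10, 1595 in FBS cells at day 3, and 20 and 1 for the differences of changes, against 405, 1198, 1116, 2559, 347 and 14 with the line term. The fit with slide as a block called 0, 1463 and 0 between media at days 0, 3 and 10 (2834 and 2480 at an unadjusted p under 0.05 in limma at days 0 and 10), 11 in serum-free cells at day 10, 785 and 1313 in FBS cells at days 3 and 10, 0 for both differences of changes and 1 between lines, against 405, 4819, 1198, 1116, 2559, 2756, 347, 14 and 572. With only the arrays compared, limma called 0 genes at days 3 and 10 between media, at day 10 in serum-free cells, at both days in FBS cells and for both differences of changes, with 3682 to 7277 at an unadjusted p under 0.05. Normexp called 982 and 9647 between media at days 0 and 3, 8487 in FBS cells at day 3, 3158 and 317 for the differences of changes and 1314 between lines. At day 0 between media 197 were called without the filter, 787 with the strict one, 899 with a variance trend and 645 with the floor. The same settings called 95, 1080, 1599 and 548 for the difference of changes at day 3 and 5, 263, 268 and 152 at day 10, where quantile normalization called 22 and 140 were called with the authors' table. A variance trend called 994 between lines, and no filter called 735 in serum-free cells at day 10. All probes taken separately gave 7538 between media at day 3, 4590 in serum-free cells at day 3 (2962 in the reported fit) and 7 for the difference of day 10 changes. The authors' table gave 71.2%, 52.9% and 20.8% of calls between media as higher in serum-free cells at days 0, 3 and 10, against 54.1%, 39.8% and 35.8% in the reported fit, and 22.5% against 41.4% of serum-free day 10 calls as rising. Its median log2 difference over all genes was 0.14, −0.10 and 0.00 between media, against −0.02, −0.21 and 0.11.

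Leaving out each array in turn gave 1 to 1 called between media at day 0, 0 to 3 at days 3 and 10, 0 to 2 in serum-free cells at each day, 1 to 5 and 1 to 3 in FBS cells at days 3 and 10, 0 to 2 and 0 to 1 for the differences of changes, 0 to 1 between lines and 0 to 0 for line by medium. With normexp and its offset of 50, the fitted direction turned for Nobox between media at day 10 (0.21) and in serum-free cells (0.12), for Sycp2 (0.0423), Figla (0.0258) and Nobox (0.13) in FBS cells at day 3 and for Figla's difference of changes at day 3 (−0.13). On the FBS Dazl-GFP day 0 array the signals of Nobox (47.6), Figla (42.2) and Sycp2 (35.9) lay below that offset, and its part in the turns was not tested. Signals near background limit Figla, Sycp2 and Nobox, whose fitted values against dim arrays do not measure a size.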
